A study of Nothobranchius furzeri with 20 samples.

Results

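The genes described here are 200 transcripts of killifish skin that stood higher in young fish given rotenone at 1% of its LC50 than in young fish given 0.1% or 10%. LC50 is the median lethal concentration. They were chosen by their measured levels among 26739 genes in 20 RNA sequencing libraries. Levels were counts per 1000000 reads counted on genes in the library (CPM), taken as log2(CPM+1). A gene met the rule when its mean was at least 1 CPM, when the lowest of the 5 libraries at 1% and 9 weeks exceeded the highest of the 10 libraries at 0.1% and 10%, and when the libraries at 27 weeks did not all lie above or all below the 15 libraries at 9 weeks. Of 17060 genes with a mean of at least 1 CPM, 774 met these conditions, and 4.54% had all 5 libraries at 1% above the 10 others. The 200 with the largest gap between the mean at 1% and the higher of the means at the other doses are the members. Their higher level at 1% is therefore the condition of their choice and no finding.

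Rotenone binds complex I of the mitochondrial respiratory chain and blocks the passage of electrons from NADH to ubiquinone, which lowers ATP production and can raise the release of reactive oxygen species. Skin of a bony fish holds an outer epidermis of living keratinocytes, with mucous cells and ionocytes, over a dermis rich in collagen. It also holds pigment cells, scales, nerve endings and immune cells. Nothobranchius furzeri, the turquoise killifish, lives in ponds that dry out each year and is used in ageing research for its short life.

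All 20 libraries came from skin of male fish of the strain MZM-04/10p, and all fish had rotenone; no untreated group is analysed here. There were 5 libraries at 27 weeks of age and 1% of LC50, and 5 libraries each at 9 weeks of age and 0.1%, 1% and 10%. Neither the duration nor the route of exposure is given in the sources used here. Whether every library stands for a different fish is not stated, so the p-values rest on differences among libraries that may be technical. Genes carry identifiers alone, and 0 of them matched a table of symbols, so no member can be given a name, function or sequence, and the skin label could not be checked against marker genes.

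Libraries held between 21770720 and 29017737 counted reads. All 5 libraries at 0.1% were counted in a second table and all others in the first, so the dose of 0.1% and its table cannot be told apart. Replicates 1 and 4 at 0.1% stood apart from the other libraries in earlier results on these data. Values without both are given for the choice of members and for the edgeR calls against 0.1%. Read shares, counts of libraries without overlap and co-variation include them. The most abundant 10 genes took 13.3% to 14.4% of reads at 27 weeks, and at 9 weeks 13.0% to 25.3% at 0.1%, 12.2% to 23.8% at 1% and 19.6% to 23.1% at 10%.

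The gap that ranked the members was moderate in size and even across them. It ran from 0.782 to 1.71 on the log2 scale with a median of 0.927, which is a 1.90-fold difference, and 65 members had a gap over 1. The member ranked last had a gap of 0.782 and the first gene outside the list 0.781, so that the list ends in a continuum of genes. The smallest gap among all 774 genes was 0.177. Between the lowest library at 1% and the highest of the 10 libraries at the other doses, the margin had a median of 1.17-fold. Its smallest value was 1.002-fold, its lower quartile 1.08-fold and its largest value 1.78-fold.

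Together the members took a small part of all reads. At 27 weeks their share was 0.729% ± 0.100 of reads (SD, n = 5). At 9 weeks it was 0.411% ± 0.0575 at 0.1%, 0.889% ± 0.155 at 1% and 0.436% ± 0.0645 at 10% (SD, n = 5 each). Per library the shares were 0.572%, 0.749%, 0.744%, 0.850% and 0.732% at 27 weeks. At 9 weeks they were 0.488%, 0.377%, 0.360%, 0.457% and 0.372% at 0.1%, then 0.909%, 0.836%, 0.708%, 1.13% and 0.860% at 1%, and 0.397%, 0.356%, 0.459%, 0.440% and 0.527% at 10%. By these shares, all 5 libraries at 27 weeks lay above all 10 at 0.1% and 10%, and 4 of them lay inside the range at 1% and 9 weeks. This order depends on the scaling. With the trimmed mean of M-values, described below, the members' median was 16.1 CPM in replicate 1 at 27 weeks and 17.1 CPM in replicate 5 at 10%. The rule itself set those 10 low and the 1% libraries at 9 weeks high. In a piece of tissue, fewer cells of a type and less RNA per cell cannot be told apart.

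**Figure D1:**
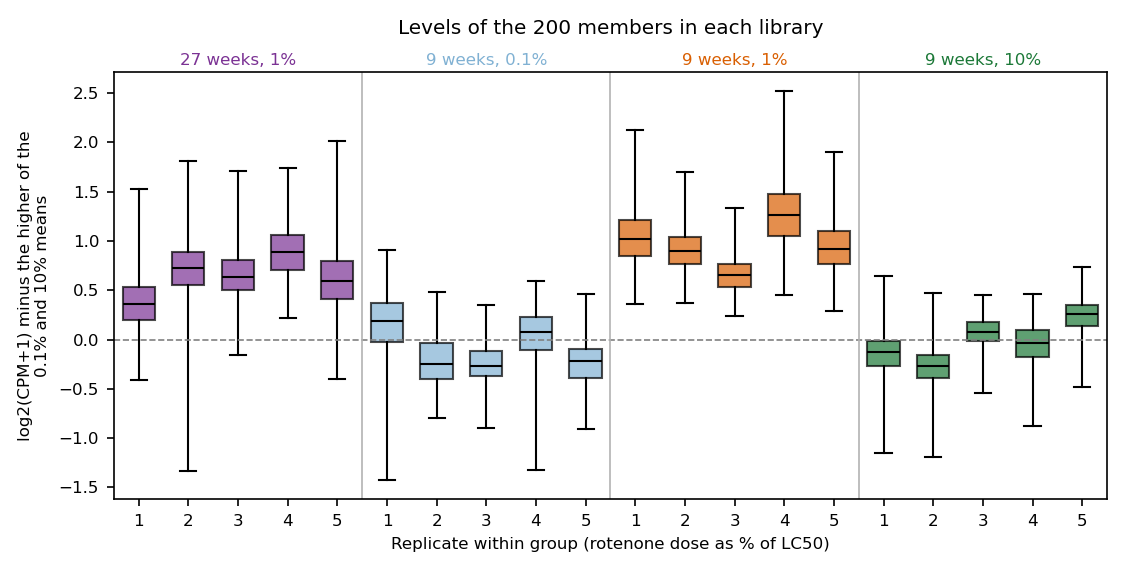
Box plots of the 200 members in each of the 20 libraries, as log2(CPM+1) minus the higher of the member's means at 0.1% and 10%; boxes span the quartiles, lines in boxes are medians and whiskers reach the lowest and highest member. The 5 libraries at 1% and 9 weeks are high and the 10 at 0.1% and 10% low by the rule; libraries at 27 weeks, which the rule did not ask to be high, lie mostly between them.

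Because the rule used both dose contrasts, their tests are printed only beside the share of all genes. In edgeR's quasi-likelihood test with Benjamini-Hochberg adjustment over all genes, 192 of the 200 members passed an adjusted p of 0.05 as lower at 10% than at 1%, where 4.88% of 18473 genes did. None (0) passed as higher, against 4.22% of genes, and 9.11% of genes passed in either direction. As higher at 1% than at 0.1%, 198 members passed, where 8.43% of 18808 genes did. Both calls held for 191 members and for 637 of the 18472 genes tested in both. The median log2 change of the members was -0.82 for 10% against 1% (0.04 over all genes) and 1.07 for 1% against 0.1% (-0.04 over all genes).

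The choice of members depended on how libraries were scaled. With CPM from column totals, the median gene with a mean of at least 1 CPM was itself 0.16 lower at 10% than at 1% on the log2 scale, and 0.05 higher at 1% than at 0.1%, and the members' own medians there, -0.96 and 1.04, are to be read against these shifts. The trimmed mean of M-values (TMM), which scales libraries so that the bulk of genes does not shift, brought these medians to 0.03 and -0.02. Its factors ran from 1.02 to 1.13 at 27 weeks, and at 9 weeks from 0.833 to 1.19 at 0.1%, from 1.00 to 1.12 at 1% and from 0.880 to 0.924 at 10%. On the TMM scale the mean at 1% was above the higher of both other doses for all 200 members, with a median gap of 0.76 on the log2 scale (1.69-fold) and a smallest gap of 0.57. The stricter condition that no library overlaps was still met by 124 members. Genes highest at 1% outnumbered genes lowest at 1% far more by column totals than with TMM: 774 genes met the rule and 65 its mirror image by column totals, against 291 and 239 with TMM. Without replicate 3 at 1% the counts by column totals were 1071 and 328, with fewer libraries left for either rule to compare.

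The 4 members described singly were picked by a stated rule: the first by rank, the member with the most reads, and the members with the lowest and the highest difference between 27 and 9 weeks among the 139 with a mean of at least 10 CPM. Their identifiers are not paired with names. Gene lengths below were derived from the deposited values and apply to the authors' gene models.

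Nfu_g_1_003790, ranked first, had 8.65, 13.4, 17.9, 23.1 and 14.0 CPM in the libraries at 27 weeks. At 9 weeks it had 9.51, 3.503, 3.93, 7.60 and 6.07 CPM at 0.1%, then 25.2, 23.55, 18.4, 39.6 and 19.1 CPM at 1%, and 5.82, 3.47, 7.44, 8.65 and 9.89 CPM at 10%. The libraries at 27 weeks overlapped the highest libraries of the 0.1% and 10% groups and the lowest of the 1% group, and lay between these groups on average. Its model is 5148 bases long, and its mean of 25.2 ± 8.56 CPM at 1% was 4.11 times that at 0.1%. The difference between 27 and 9 weeks was -0.76 on the log2 scale (SE 0.30, edgeR adjusted p = 0.138). That between 10% and 0.1% was 0.38 (SE 0.30, edgeR adjusted p = 0.4996). Neither passed the threshold. Libraries behind both differences also chose the gene, so nothing is read from either.

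Nfu_g_1_020032 drew the most reads of all members. It had 229, 290.4, 315, 336 and 338 CPM at 27 weeks. At 9 weeks it had 236, 164, 158, 209 and 171 CPM at 0.1%, then 338, 303, 261, 415 and 345 CPM at 1%, and 186, 159, 195, 198 and 217 CPM at 10%. This gene, of 8118 bases, stood 195th of the 200 by the gap. Of the libraries at 27 weeks, replicate 1 fell among the 0.1% libraries and the other 4 lay inside the range of the 1% group. The log2 differences were -0.19 for 27 against 9 weeks (SE 0.15, edgeR adjusted p = 0.464) and 0.17 for 10% against 0.1% (SE 0.14, edgeR adjusted p = 0.502). Here too, libraries behind both differences also chose the gene, and nothing is read from them.

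Nfu_g_1_018407 had the lowest difference between ages. Its values at 27 weeks were 10.2, 3.605, 10.3, 14.9 and 7.81 CPM. At 9 weeks they were 17.0, 10.9, 9.64, 14.1 and 5.2003 CPM at 0.1%, then 19.9, 17.8, 18.97, 27.4 and 18.51 CPM at 1%, and 8.56, 4.11, 10.9, 9.79 and 7.64 CPM at 10%. All libraries at 27 weeks lay below all libraries at 1% and 9 weeks. They overlapped those at 0.1% and 10%, with replicate 2 just under the lowest of them. The transcript's model is 2306 bases long. Its mean was 9.36 ± 4.11 CPM at 27 weeks and 20.53 ± 3.93 CPM at 9 weeks and 1% (SD, n = 5 each; log2 change -1.18, SE 0.31, edgeR adjusted p = 0.0454). The gene was picked for this difference, and the call was lost when any of 8 of the 10 libraries was left out. In those 8 fits the edgeR adjusted p lay between 0.0693 and 0.102. It was 0.0384 without replicate 3 at 1% and 9 weeks, and 0.0463 without replicate 4 at 27 weeks. Over all alternatives the lowest adjusted p, 0.00557, came from DESeq2.

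Nfu_g_1_022686 had the highest difference between ages. It stood at 42.7, 44.5, 60.1, 40.4 and 75.8 CPM at 27 weeks. At 9 weeks it stood at 20.3, 11.9, 11.6, 26.6 and 25.3 CPM at 0.1%, at 28.8, 31.6, 41.9, 66.1 and 28.3 CPM at 1%, and at 11.7, 10.8, 15.2, 16.0 and 17.6 CPM at 10%. Every library at 27 weeks exceeded every library at 0.1% and 10% and overlapped those at 1%, with replicate 5 above them all. The log2 difference of 0.40 between 27 and 9 weeks, for which the gene was picked, did not pass the threshold (SE 0.25, edgeR adjusted p = 0.362).

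**Figure D2:**
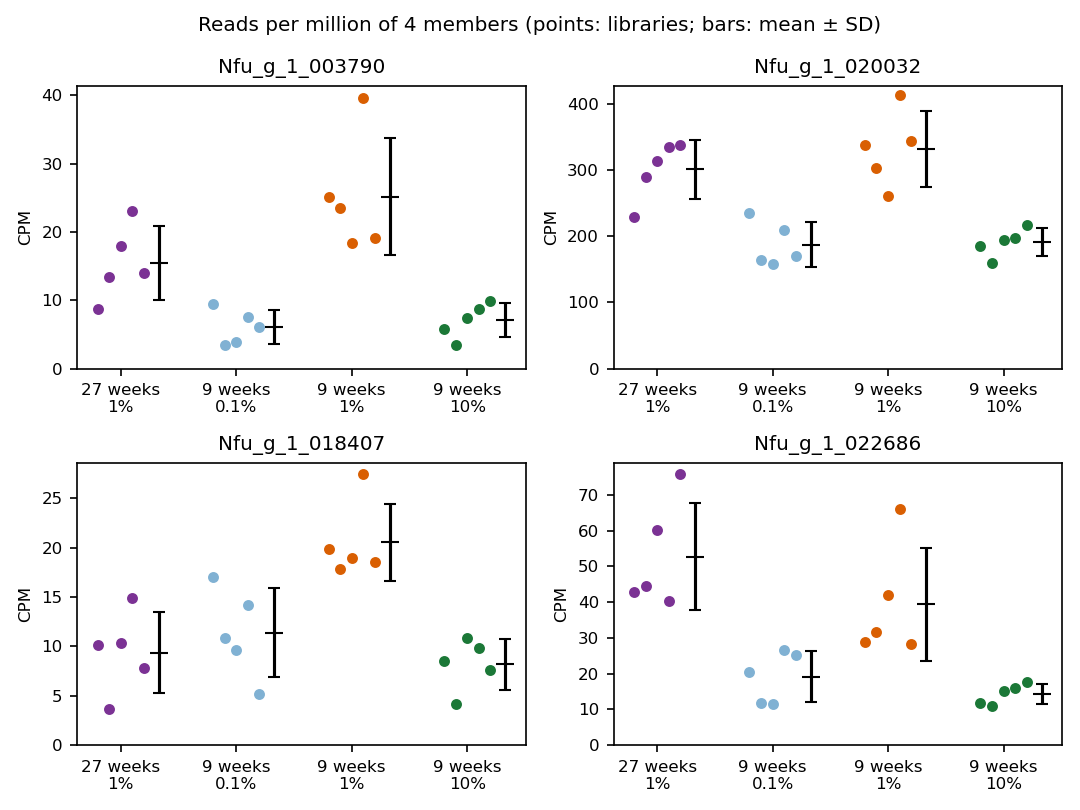
CPM of the 4 members in every library, with the mean and SD of each group beside its 5 points; each panel has its own axis from 0. At 27 weeks Nfu_g_1_018407 lies below all libraries at 1% and 9 weeks, and Nfu_g_1_022686 above all libraries at 0.1% and 10%.

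To see the pattern in libraries that took no part in the choice, the 200 genes were chosen again without 1 of the 15 libraries at 9 weeks, for each in turn, and their values in the left-out library were read. The other libraries still served the choice, so the levels they set are not free of it, and no test was made. When a library at 1% was left out, 142 to 199 of the 200 genes chosen without it were above all 10 libraries of the other doses in it. Of all genes with a mean of at least 1 CPM, 16.7% to 23.0% were. Replicate 3 gave the lowest count, 142, and without it 142 of the 200 members were chosen again. The other 4 libraries gave 180, 199, 190 and 165 genes for replicates 1, 2, 4 and 5.

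On a scale where 0 is the higher of the means at 0.1% and 10% and 1 is the mean at 1%, the left-out libraries at 1% lay at medians of 0.995, 0.915, 0.547, 1.31 and 0.848. Left-out libraries at 0.1% lay between -0.26 and 0.34 and those at 10% between -0.31 and 0.32, so that all 10 stayed below all 5 left-out libraries at 1%. In them 154 to 199 genes at 0.1% and 188 to 200 genes at 10% were below all 5 libraries at 1%, the lowest count coming from replicate 1 at 0.1%. Of all genes, 20.3% to 44.4% met that condition at 0.1% and 31.3% to 39.6% at 10%. With TMM scaling the left-out libraries at 1% lay between 0.35 and 1.39, those at 0.1% between -0.26 and 0.17, and those at 10% between -0.44 and 0.40. There replicate 3 at 1%, at 0.35, fell below replicate 5 at 10%, at 0.40, and held 91 of its 200 genes above the other doses, where 7.18% of all genes were. Over the 5 libraries at 1% the TMM counts ran from 91 to 193, and those of all genes from 7.18% to 17.4%.

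**Figure D3:**
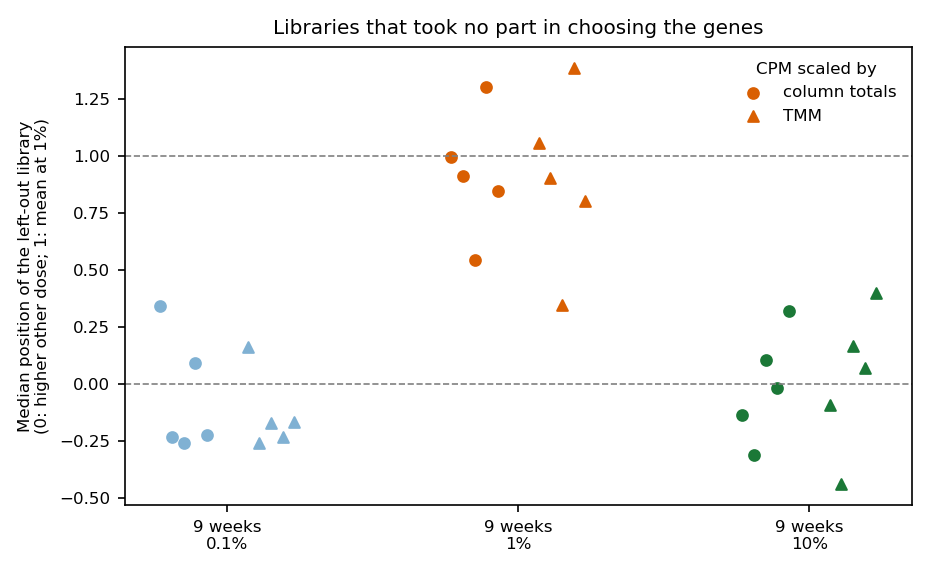
Median position of each left-out library at 9 weeks over the 200 genes chosen without it, by dose, with CPM from column totals (circles) or TMM (triangles); 0 is the higher of the means at 0.1% and 10%, and 1 the mean at 1% in the libraries used. By column totals, libraries at 1% lie between 0.55 and 1.31 and the others at or below 0.34; by TMM, replicate 3 at 1% (0.35) overlaps the 10% group.

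The fish of 27 weeks had the same dose of 1%, and the rule only barred genes that set them wholly apart from all fish of 9 weeks, a condition that removed 1 gene. Their level of the members lay between the groups. On the position scale the mean at 27 weeks had a median of 0.665 over members, with quartiles of 0.527 and 0.797. It lay between both marks for 187 members, above the mean at 1% and 9 weeks for 12 and below the higher of the other doses for 1. For 160 members it was nearer to the 1% mark by column totals. With TMM the median position was 0.530, close to midway, so this nearness depends on the scaling. The low libraries and the 1% libraries at 9 weeks were chosen for their distance, which stretches this scale at both ends.

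All 5 libraries at 27 weeks exceeded all 10 libraries at 0.1% and 10% for 84 members, where 5.81% of genes with a mean of at least 1 CPM did so. With TMM this count was 46 members, and 1.96% of genes. They exceeded all 5 libraries at 10% for 101 members, where 20.2% of genes did, and all 5 at 0.1% for 110 members, where 9.87% of genes did. All 5 lay below all 5 libraries at 1% and 9 weeks for 18 members, where 2.09% of genes did so. The dose at 27 weeks differs from 0.1% and 10% together with age, so that age and dose cannot be told apart in these counts. By the rule the 10 libraries at 0.1% and 10% are low in the members, and the 5 at 1% and 9 weeks are high. The choice thus raises these counts above the shares of all genes, and nothing is read from them.

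Between 27 and 9 weeks at 1% the members fell by a median of 0.40 on the log2 scale, against 0.02 for all genes, and 192 of 200 had a negative log2 change. Of the 200 members, 26 passed an adjusted p of 0.05 in edgeR's quasi-likelihood test, all lower at 27 weeks, with log2 changes from -1.18 to -0.45. Among all 18473 genes 4.49% passed in either direction, 2.4% as lower and 2.08% as higher. At an unadjusted p under 0.05, 106 members passed as lower, where 12.1% of genes did, and 0 as higher, where 10.9% did. The 1% libraries at 9 weeks were chosen to be high for these genes, so a fall is built into the comparison, and nothing is read from the count. The number called also moved with single libraries. Leaving out replicates 1 to 5 at 27 weeks in turn left 1, 1, 3, 19 and 2 members called, where 94, 61, 255, 458 and 52 of all genes were, against 829 with all libraries. Leaving out replicates 1 to 5 of the 1% group at 9 weeks gave 9, 1, 61, 7 and 10 members, and 325, 17, 1754, 433 and 481 of all genes. The members' count thus moved in fits where the count of all genes moved as well. It was 53 with DESeq2 (10.8% of all genes passed there) and 1 in a fit of these 10 libraries alone (103 of 18001 genes).

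The rule also used the 10% and 0.1% groups: ranking on the higher of their means favours genes in which they are close, on a scale that sets the 10% libraries lower for most genes. Their difference is therefore given as a description, and nothing is read from it. In edgeR's quasi-likelihood test 0 of 200 members passed an adjusted p of 0.05 for 10% against 0.1%, as did 0% of all 18808 genes, and the lowest adjusted p of a member was 0.130. At an unadjusted p under 0.05, 35 members passed as higher at 10%, where 9.3% of genes did, and 0 as lower, where 11.2% of genes did. With DESeq2 6 members passed, where 5.11% of genes did. The median log2 change of the members was 0.21 in edgeR, against 0.00 over all genes, and 190 of 200 were positive. From column totals the median difference was 0.07, against -0.11 over all genes. The libraries and the scale behind these values also chose the members. All libraries at 10% exceeded all at 0.1% for 1 member, where 0.639% of genes did, and the reverse held for 0 members and 1.76% of genes. Dose and count table coincide here and cannot be told apart.

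**Figure D4:**
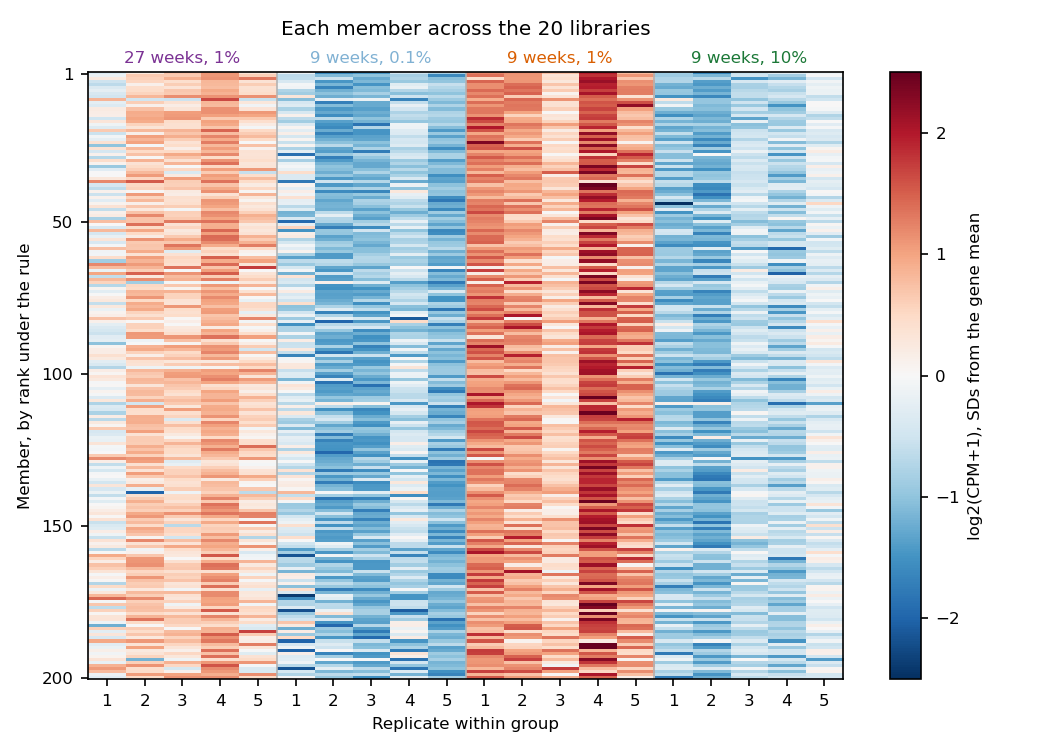
Log2(CPM+1) of each of the 200 members, in rank order from top to bottom, as SDs from its mean over the 20 libraries, with red for higher and blue for lower. Levels are by column totals, without values for all genes beside them. Nothing about the members is read from the order of libraries. The same libraries stand out for most members. At 1% and 9 weeks replicate 4 is the strongest and replicate 3 the palest. At 27 weeks replicate 4 is the strongest and replicate 1 the palest.

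The members also varied together between libraries of the same group. The rule did not ask for this, but it bears on the deviations at 9 weeks. A gene low in a library at 1%, or high in a library at another dose, could be barred by it. At 1% and 9 weeks replicate 4 was the highest of the 5 libraries for 129 members and replicate 3 the lowest for 143. At 27 weeks replicate 4 was the highest for 131 members and replicate 1 the lowest for 138. Replicate 5 at 10% was the highest of its group for 133 members and replicate 2 the lowest for 120, and replicate 1 at 0.1% was the highest for 115. These ranks are by column totals. No share over all genes stands beside them, so nothing about the members is read from them. Values of all genes stand beside the correlations below. By column totals the library nearest to the 1% group was replicate 5 at 10% for 78 members and replicate 1 at 0.1% for 64. On the position scale the members' median in replicate 1 at 0.1% was 0.200 by column totals and -0.113 with TMM. For replicate 5 at 10% it was 0.274 and 0.320. The nearness of replicate 1 at 0.1% thus depends on the scaling. Between the highest and the lowest library, replicates 4 and 1 at 27 weeks had 25269634 and 26363946 reads, with 14.2% and 13.8% of them in the top 10 genes. Replicates 4 and 3 at 1% and 9 weeks had 22535742 and 25624624 reads, with 12.9% and 12.2% in the top 10 genes. The part of depth in this order was not tested.

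Across all 20 libraries, each taken as its deviation from its group mean, a member's deviations had a median Pearson r of 0.779 with the mean of the other 199 members, with quartiles of 0.625 and 0.845. The median r of all genes with the members' mean was 0.115. An r over 0.8 was seen in 81 members (40.5%) and in 1.45% of all genes. These values describe points that share libraries, depth and scaling, and carry no test. The libraries at 9 weeks also chose the members. At 27 weeks alone, over 5 libraries, the median was 0.817 for members and 0.141 for all genes. The matching medians at 9 weeks were 0.832 and 0.596 at 0.1%, 0.805 and -0.09 at 1%, and 0.822 and 0.073 at 10%. The high value of all genes at 0.1% belongs to the group in which replicates 1 and 4 stand apart, whose part in it was not tested. With TMM the medians over 20 libraries were 0.722 for members and -0.01 for all genes. At 0.1% both medians dropped with TMM, to 0.348 for members and 0.023 for all genes.

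A few members did not follow the rest. For 13 of the 200 the r was at or below 0, the lowest being -0.36. These 13 had a median gap of 0.83 on the log2 scale, against 0.95 for the 81 members with an r over 0.8. Their median difference between 10% and 0.1% was 0.37 on the log2 scale, against 0.08 for those 81. Both classes were formed after the values were seen, by column totals. With TMM, 194 members had an r over 0, against 187 by column totals, and 59 had an r over 0.8, against 81. The size of both classes thus depends on the scaling.

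**Figure D5:**
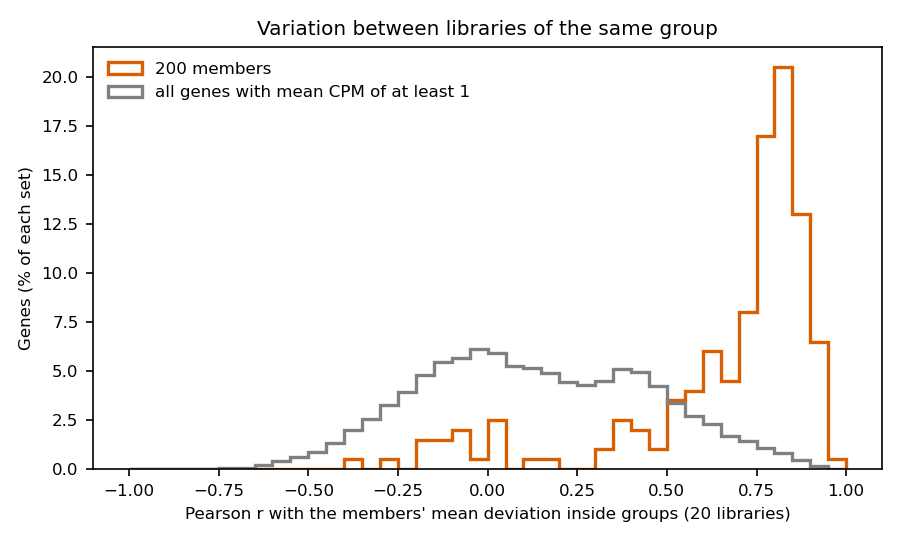
Distribution of Pearson r between the deviations of a gene from its group means and the mean deviation of the members (the gene itself left out), over 20 libraries, as a percentage of the 200 members and of all genes with a mean of at least 1 CPM. Members gather around their median of 0.779, and all genes spread around 0.115.

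In median length the members resembled other expressed genes, and their median read count was somewhat higher. Their models had a median length of 2820 bases, with quartiles of 1538 and 4339, against a median of 2796 bases for all genes with a mean of at least 1 CPM, with quartiles of 1416 and 4811. Their mean over the 20 libraries had a median of 17.9 CPM and ran from 2.37 to 253 CPM. All those genes had a median of 14.2 CPM and ran up to 30273 CPM. The longest model had 8773 bases among members and 88546 bases among all those genes. Of the members, 61 had a mean under 10 CPM, 127 lay between 10 and 100 CPM, and 12 were at 100 CPM or more. The median gap was 0.91, 0.93 and 0.94 on the log2 scale in these classes, all of them cut at the same lowest gap by the rule. The position of the 27-week mean was 0.596, 0.678 and 0.765. Low counts were few: 18 members had fewer than 50 reads in some library, the fewest being 5 reads. The margin between the lowest library at 1% and the highest of the 10 others had a lower quartile of 1.08-fold. Whether counting error bears on more members was not tested. In the order of rows of the count tables, 8 pairs of members stood next to each other. No value for all genes stands beside this count, and nothing is read from it. Reads of overlapping genes or near-identical copies may have been split or dropped in counting, for which no strand setting is given. Whether this bears on any member was not tested.

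The members' spread inside groups is given beside that of all genes with a mean of at least 1 CPM. The median SD of log2(CPM+1) was 0.25 for members and 0.21 for all genes at 27 weeks. At 9 weeks it was 0.28 and 0.35 at 0.1%, 0.29 and 0.28 at 1%, and 0.26 and 0.24 at 10%. The rule bears on the spread at 9 weeks, as all 5 libraries at 1% had to exceed the 10 others. Nothing is read from these SDs.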

How the data were processed

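Per the labels' protocols, libraries of skin RNA were made with a TruSeq kit. The submitters' processing notes name featureCounts 1.4.6-p4, STAR 2.4.1d and CASAVA 1.8.2. The build, the annotation and the strand setting were not given in the sources used here. Both deposited count tables hold unnormalized whole-number counts for the same 26739 genes. The deposited RPKM values served for gene length and for an alternative choice of members. Their divisor changes from row to row and repeats every 35 rows. The totals of all 20 libraries were found among the divisors, to within 0.000989%. The remaining divisors were not matched to a library. Lengths solved from the divisors came within 0.1 bases of a whole number for 77.0% of genes with over 2000 reads. Columns were matched by title, and 10 count and 9 RPKM columns that match no sample described here were not used.

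Members and lists were chosen with earlier results of these data known. Pathway and marker lists could not be used, since 0 identifiers matched a symbol. Members to be described singly were the first by rank, the one with the most reads, and those with the lowest and highest difference between ages at a mean of at least 10 CPM. Tests ran on all genes in R 4.3.3 with edgeR 4.0.16 (TMM, filterByExpr, glmQLFit, glmQLFTest, two-sided, Benjamini-Hochberg adjustment), with 1 mean per group. Comparisons without 0.1% used the 15 libraries of the first table, others all 20. SEs come from the log2 change and its F statistic. Comparisons sharing the 1% libraries are not independent. Replicates differed by a chi-square of at least 32.6 for each degree of freedom, more than counting error, so each was counted as a library of its own. Whether any come from the same fish is not stated. Fits were tested on simulated data. Alternatives were RLE scaling, no filter, DESeq2 1.42.0, fewer or more libraries, other pseudocounts and minimum levels, and leaving out each library. Choices without replicates 1 and 4 at 0.1%, and without the lowest libraries at 1%, were added after the data were seen. Each library held at least 21770720 reads.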

Additional observations from a re-analysis of the deposited data

Results flagged for a closer look

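For Nfu_g_1_018407, replicate 4 at 1% and 9 weeks stood at 27.4 CPM, while the other 4 libraries of that group lay between 17.8 and 19.9 CPM, a distance that exceeds Dixon's critical value of 0.71 as a share of the range. This happened in 1 of 28 groups of values examined, and chance passes this limit in about 1 of 20 groups. Without that library the log2 change between 27 and 9 weeks was -1.07 with an edgeR adjusted p of 0.0903.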

How the results depend on the processing

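Of the 200 members, 124 were chosen again with TMM, 125 from the deposited RPKM values and 127 without replicates 1 and 4 at 0.1%, and 142 to 200 when a library was left out. Genes meeting the rule numbered 774, against 291 with TMM, 345 with RPKM, 1763 without replicates 1 and 4 at 0.1%, and 770 to 1071 with a library left out. Genes meeting the mirrored rule numbered 65, against 239 with TMM, 40 at a minimum mean of 10 CPM, 328 without replicate 3 at 1% and replicate 1 at 27 weeks, and 65 to 328 with a library left out. RPKM values are also divided by gene length, and their divisors change between rows. With them the minimum mean of 1 and the 1 added before log2 were in RPKM, not in CPM. The cause of these moves was not tested. Between ages 26 members were called, and 829 of 18473 genes. Without a filter the counts were 16 members and 585 of 22475 genes, and with DESeq2 53 and 2027 of 18705. A fit of the 10 libraries gave 1 and 103 of 18001, and a fit of all 20 gave 16 and 423 of 18808. With a library left out the counts ran from 1 to 61 members and from 17 to 1754 genes. As lower at 10% than at 1%, 192 members and 902 of 18473 genes were called. In a fit of 10 libraries 114 members and 293 of 18061 genes were. Leaving out a library gave 133 to 198 members and 421 to 1370 genes. The 198 members called higher at 1% than at 0.1% stood beside 1585 of 18808 genes. They were 187 in a fit of 10 libraries, beside 663 of 18044 genes. Without replicates 1 and 4 at 0.1% they were 192, beside 1506 of 19008 genes. Leaving out a library gave 195 to 199 members and 1214 to 1761 genes. For 10% against 0.1% 0 members were called under edgeR in every setting (0 to 0 with a library left out). Of all genes edgeR called at most 1 there. With DESeq2 6 members were called, and 935 of 18313 genes. No paired analysis was possible because replicate numbers were given in accession order and pair nothing.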

Other observations

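The deposited RPKM values are not reads divided by the total of their own library. Within each column the ratio of count to RPKM followed the row number with a period of 35 rows, with an SD of at most 0.00864 log2 among rows of the same remainder against at least 0.20 over all rows. The largest divisor was 1.90 times the smallest. Fold changes of single genes taken from that table therefore carry a factor that depends on the row, and members were described from counts for that reason. Chosen from RPKM, with a minimum mean of 1 RPKM in place of 1 CPM, 345 genes met the rule and 125 of the 200 members were among the top of them.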
